A study of Phaseolus vulgaris with 6 samples.

Results

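Basic helix-loop-helix (bHLH) transcription factors were examined in common bean (Phaseolus vulgaris), at the top of the stem of the mutant nts and its wild type A18. The members were all gene models whose deposited description contains "helix-loop-helix" or "bHLH" and not "phytochrome", which gave 162 of 27012 genes. Of these, 147 carry the description of a bHLH DNA-binding superfamily protein and 12 that of a family protein. The remaining 3 are described more closely, as 2 cryptochrome-interacting bHLH genes and 1 ABA-inducible bHLH-type factor. Names of single genes are therefore rare in this family here, and most members are described by gene identifier and by the GO terms (functional annotation terms) of the same table.

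RNA was sequenced from plants at their first flowering, when the stem tips of nts looked different from those of A18 per the labels. There were 3 nts samples and 3 A18 samples. The labels name the mutant only as nts and do not give the mutated gene or how it was made, nor whether each sample was taken from its own plants. P-values therefore measure the spread between these samples, which may be technical.

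bHLH proteins bind DNA as dimers through a basic region followed by the helix-loop-helix that holds the partners together, and many recognise the E-box. Members that lack the basic region cannot bind DNA themselves and act by taking partners away from other bHLH proteins. In Arabidopsis the family controls cell elongation in response to hormones and light, the steps of stomatal development, carpel and fruit growth, jasmonate and iron responses, epidermal cell fate together with MYB proteins, and the formation of vascular tissue.

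Libraries held 61113606, 58560842 and 46361548 counts in nts replicates 1, 2 and 3 and 62695701, 40728394 and 53379710 in A18 replicates 1, 2 and 3. A18 replicate 2 and nts replicate 3 stood apart from their genotypes. On the log2 CPM scale (counts scaled to library size), A18 replicate 2 correlated across all tested genes with nts replicate 3 at r = 0.902 and with A18 replicates 1 and 3 at 0.887 and 0.894. Across the 119 tested bHLH members it correlated with nts replicate 3 at 0.848 and with A18 replicates 1 and 3 at 0.918 and 0.908. Genes are not independent replicates, and these values carry no test. The 72 markers of secondary-walled xylem and fibres summed to between 689 and 3062 FPKM (fragments scaled to transcript length and sequencing depth) in nts and to between 8301 and 10744 FPKM in A18, and 4 of them were at 0 in all 6 libraries. At an unadjusted edgeR p under 0.05, 36 of the 63 tested among them were lower in nts and 1 higher. The 46 markers of the meristem, 17 of them at 0 throughout, summed to 716 to 1184 FPKM in nts and 1054 to 1191 in A18, with 9 of 27 tested lower in nts and 1 higher at that p. The 33 photosynthetic markers spanned 23999 to 26122 FPKM in nts and 14526 to 26411 in A18, with 21 genes higher in nts and 0 lower at that p. The 24 markers of dividing cells summed to 169 to 363 FPKM in nts and 149 to 278 in A18, with 1 higher and 0 lower at that p. Of these 24, 22 had a log2 change above 0, as did 10602 of all 21126 tested genes. The secondary wall, meristem and photosynthetic lists thus held more genes on one side than the 9.58% lower and 8.39% higher of all tested genes, although the meristem and photosynthetic sums overlapped between genotypes. Their part in the results on bHLH genes was not tested. In bulk tissue, fewer cells of a type and less RNA per cell cannot be told apart.

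Most of the family was expressed at a low or moderate level in these stems. Of the 162 members, 21 had 0 counts in all 6 libraries, another 46 had a mean FPKM under 1, 36 lay between 1 and 10, 50 between 10 and 100 and 9 at or above 100. The median over the family was 2.64 FPKM, against 8.08 over all 27012 genes. The share of genes at 0 throughout was 13.0% for the members and 13.6% for all genes. Summed over the family, nts replicates 1, 2 and 3 had 3328, 2712 and 3792 FPKM and A18 replicates 1, 2 and 3 had 3113, 2849 and 3140. The summed levels overlapped between the genotypes.

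The comparison of nts with A18 asked which bHLH genes differ in the mutant stem tip. Growth-annotated members included Phvul.003G067500, with a mean of 251 ± 102.7 FPKM in nts and 15.1 ± 11.0 in A18, and Phvul.008G041800, with 144 ± 45.97 FPKM in nts and 6.62 ± 6.58 in A18 (SD, n = 3 each). Members annotated as RNA polymerase II activators lay mostly below their A18 levels, with a median log2 change of -0.63 over those tested. The growth and activator groups were picked from 14 annotation groups after the values had been seen. After a filter on low counts 119 members were tested with 21126 genes in all, and 0 of the 119 passed an adjusted p under 0.05 (edgeR quasi-likelihood test with Benjamini-Hochberg adjustment over all genes), where 0.0947% of all tested genes did. The lowest edgeR adjusted p among members was 0.0663, shared by Phvul.002G088400, Phvul.008G041800, Phvul.006G114000 and Phvul.006G198400. At an unadjusted p under 0.05, 13 members were higher in nts (10.9% of those tested, against 8.39% of all tested genes) and 18 were lower (15.1%, against 9.58%). Single libraries moved these counts and their order: there were 22 higher and 18 lower members without A18 replicate 2, 16 and 28 without nts replicate 3, and 10 and 10 without nts replicate 1. Without A18 replicate 1 there were 12 higher and 11 lower, and without A18 replicate 3 there were 11 and 12. Over all genes the counts moved with them, to 2908 higher and 2372 lower without A18 replicate 2 and to 2498 and 3034 without nts replicate 3.

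Other tests called more members and more genes in total. DESeq2 called 22 members, 11 higher and 11 lower, which was 15.8% of the members it tested, against 10.5% of all genes it tested. With limma-voom and quality weights 44 members were called (37.0%, against 24.1%), and with limma on FPKM 3 were (2.94%, against 2.23%). With edgeR, leaving out A18 replicate 2 gave 3 called members (2.46%, against 4.38%), which was below the share of all genes. Leaving out nts replicate 3 gave 6 (4.92%, against 4.45%), near the share of all genes. Leaving out this pair together gave 27 (22.3%, against 19.9%), and leaving out any other single library gave 0.

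The study's own limits were a log2 change of 2 or more, or of -2 or less, with p at or under 0.05. Under these, with edgeR's unadjusted p, 7 members were higher and 5 lower in nts. These were 5.88% and 4.20% of the tested members, against 2.06% and 3.37% of all tested genes, so the share on the lower side was near that of all genes. The count of higher members was 12 without A18 replicate 2, and the count of lower members was 8 without nts replicate 3. With that pair of libraries left out there were 11 higher and 10 lower. Across the tested members the median log2 change was -0.09, against 0.00 over all tested genes, with 56 members above 0 and 63 below.

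**Figure D1:**
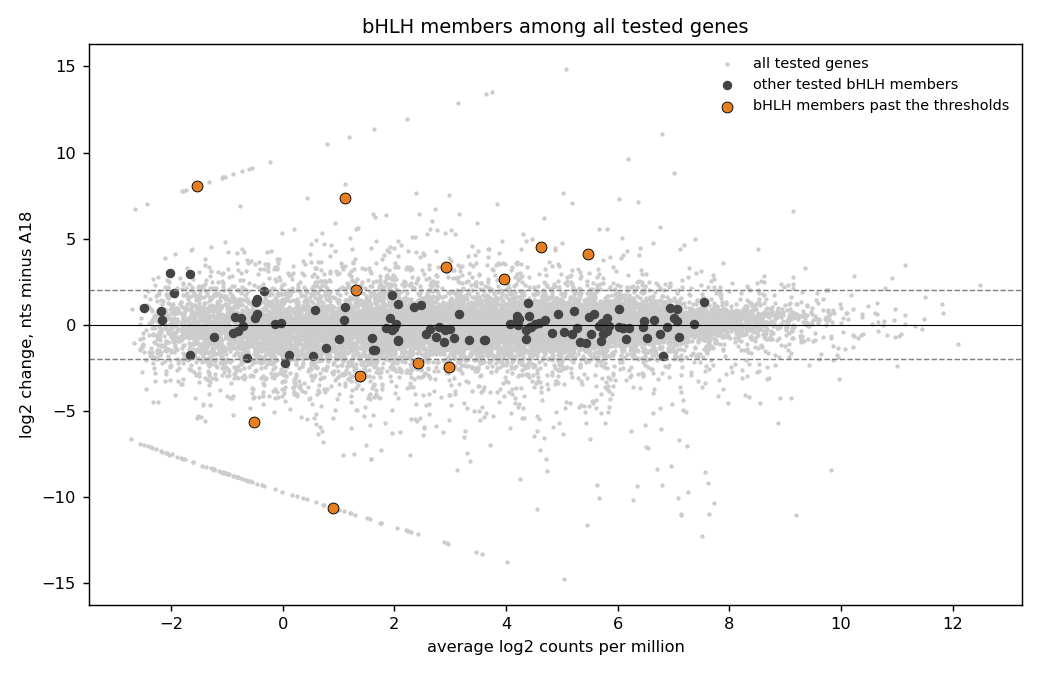
Log2 change (nts minus A18, vertical axis) against average log2 CPM (horizontal axis) for all 21126 tested genes in grey, with the 7 higher and 5 lower bHLH members past the study's thresholds in orange and the other tested members in dark grey; dashed lines mark log2 changes of 2 and -2. The members past the thresholds are spread over low and middle abundance, and the outermost member on each side is a gene at 0 counts in one genotype, whose fitted change depends on the prior count.

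GO "regulation of growth" is carried by 6 members, all of them tested, and 5 of the 6 had every nts library above every A18 library (11.9% of all tested genes did). This and the other groups by GO term were chosen after the values had been seen. In Arabidopsis, bHLH factors that regulate growth include small proteins that do not bind DNA and promote cell elongation downstream of gibberellin, brassinosteroid and light. Phvul.003G067500, Phvul.008G041800, Phvul.002G088400 and Phvul.004G027700 share 1 set of terms, with protein dimerization, nucleus, cytoplasm, light and growth but no DNA binding term, which Phvul.001G031300 and Phvul.002G110500 do carry. The group's median log2 change was 2.92. At an unadjusted edgeR p under 0.05, 4 of 6 were higher and 0 lower (8.39% and 9.58% of all tested genes were). The 47 tested genes outside the bHLH family that carry the same term had a median of 0.07, with 3 higher and 2 lower.

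Phvul.003G067500 (chromosome 3, 10013189 to 10013923, plus strand), annotated with response to light stimulus and regulation of growth, had 359, 154 and 241 FPKM in nts replicates 1, 2 and 3, against 3.38, 17.0 and 25.1 FPKM in A18 replicates 1, 2 and 3. The lowest nts library stood well above the highest A18 library. The log2 change was 4.12 ± 0.79 (standard error, here and in the following the size of the change over the square root of F; edgeR adjusted p = 0.0809). Its mean in nts was the highest of any member in that genotype.

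Phvul.008G041800 (chromosome 8, 3553086 to 3554620, plus strand), which carries the same terms, had 197, 115 and 120 FPKM in the nts libraries and 3.05, 2.60 and 14.2 FPKM in the A18 libraries. All nts values lay far above the highest A18 value, which came from A18 replicate 3. The log2 change was 4.54 ± 0.75 (edgeR adjusted p = 0.0663). Without nts replicate 3 the gene was called, as it was by DESeq2, limma-voom with quality weights and limma on FPKM.

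Phvul.002G088400 (chromosome 2, 14619141 to 14619887, minus strand) was nearly silent in A18. It had 16.2, 16.2 and 6.21 FPKM in nts, from 317, 306 and 96 counts, against 0.187, 0 and 0 FPKM in A18, from 4, 0 and 0 counts. The fitted log2 change of 7.39 ± 1.19 (edgeR adjusted p = 0.0663) rests on these 4 counts in A18 and is imprecise. Phvul.003G067500 and Phvul.002G088400 are compact gene models, spanning 735 and 747 base pairs, against a median of 1911 over the family, in which 24 of 162 span less than 1000. Phvul.008G041800 spans 1535 base pairs.

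The other growth-annotated members were less far apart. Phvul.001G031300 (chromosome 1, 2841695 to 2844106), annotated with response to blue light and growth, was abundant in both genotypes, with 185, 116 and 221 FPKM in nts and 57.3, 102 and 53.4 FPKM in A18. Its log2 change was 1.34 ± 0.42 (edgeR adjusted p = 0.176), the closest pair being nts replicate 2 and A18 replicate 2. Phvul.004G027700 had 22.4, 17.1 and 14.99 FPKM in nts against 4.57, 0 and 13.6 FPKM in A18, and A18 replicate 3 lay close to nts replicate 3 (edgeR log2 change 1.71 ± 1.34, adjusted p = 0.555). Phvul.002G110500 overlapped between the genotypes, with a mean of 25.1 ± 3.31 FPKM in nts and 28.3 ± 7.65 in A18 (SD, n = 3 each).

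**Figure D2:**
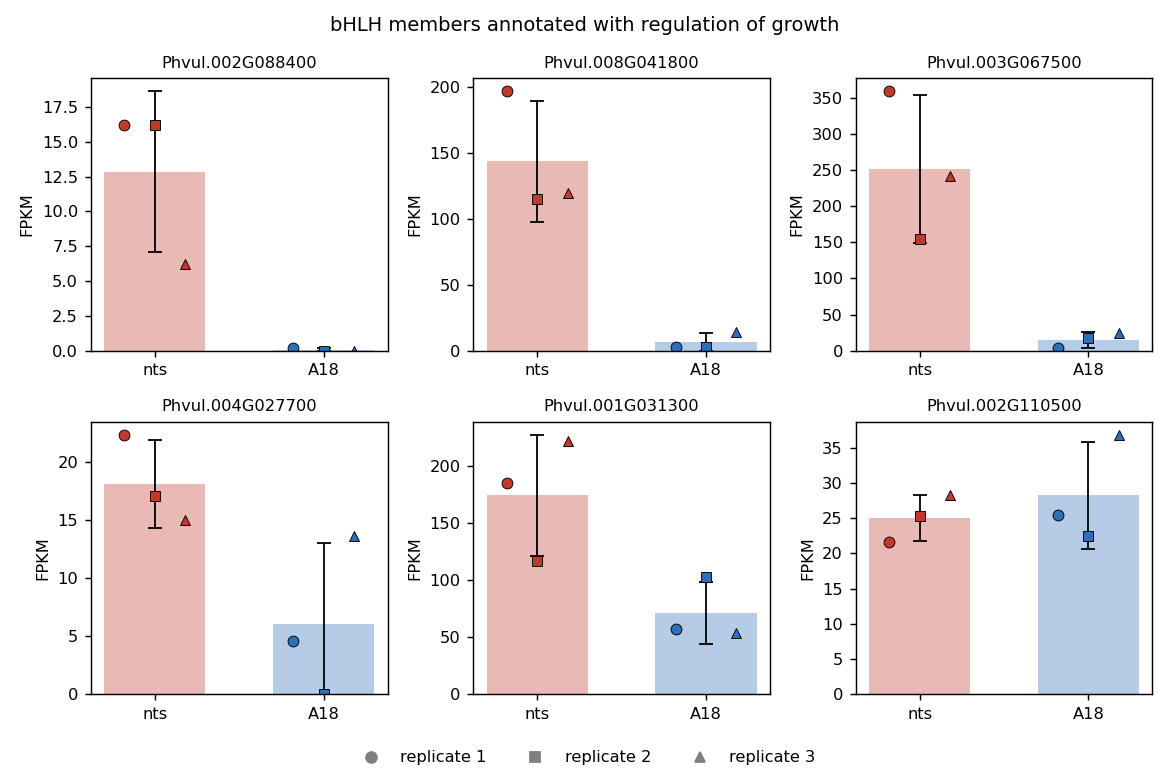
FPKM (vertical axes, linear, from 0, a scale of its own in each panel) of the 6 growth-annotated bHLH members in nts and A18; bars are means, error bars the SD, and points the 3 replicates of each genotype. In Phvul.002G088400, Phvul.008G041800 and Phvul.003G067500 the A18 libraries lie near the foot of the panel, while in Phvul.002G110500 the genotypes overlap.

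GO terms for stomata or guard cells are carried by 8 members, of which 4 were tested, and these 4 had log2 changes from 0.03 to 3.33. In each of the 4, nts replicate 2 was the highest nts library. Without it 2 lay above and 2 below 0, and 1 was higher at an unadjusted edgeR p under 0.05, against 2 with all libraries. Without A18 replicate 2 or 3, 5 were tested, 4 above and 1 below 0. bHLH proteins drive successive steps of the stomatal lineage in Arabidopsis, from entry into the lineage to the formation of guard cells. Phvul.009G162000 (chromosome 9, 24050560 to 24052723), annotated with stomatal lineage progression and with cold and freezing responses, had 6.80, 15.3 and 1.80 FPKM in nts, against 0.922, 0.897 and 0.621 FPKM in A18. The nts libraries spanned a wide range and nts replicate 3 was the nearest to A18 (edgeR log2 change 3.33 ± 0.76, adjusted p = 0.106).

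Phvul.003G033900 (chromosome 3, 3496609 to 3498371), annotated with guard cell differentiation and with negative regulation of cell division, had 2.32, 4.21 and 1.40 FPKM in nts and 0.524, 1.20 and 0.254 FPKM in A18. Its lowest nts library was close to its highest A18 library (edgeR log2 change 2.01 ± 0.74, adjusted p = 0.229). The other tested members with such terms, Phvul.001G085500 and Phvul.004G070125, overlapped between genotypes, with means of 11.3 ± 3.36 and 3.76 ± 1.70 FPKM in nts and 11.9 ± 7.14 and 3.24 ± 0.81 in A18 (SD, n = 3 each). Of 5 stomatal lineage genes outside the family 3 were tested and 0 had an unadjusted edgeR p under 0.05, with 0 called over all genes. That count was 2 of 4 tested, both higher, without A18 replicate 3 or nts replicate 3, and 1 without A18 replicate 2. The stomagen genes among them, whose product promotes stomatal formation in Arabidopsis, had 22.7 ± 12.7 FPKM in nts and 8.25 ± 5.98 in A18 (Phvul.010G031000), and 2.44 ± 2.39 FPKM in nts and 0.243 ± 0.270 in A18 (Phvul.008G137700).

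Phvul.003G243350 (chromosome 3, 47893771 to 47894535), annotated with carpel formation, transmitting tissue and regulation of auxin polar transport, had 20, 66 and 16 counts in nts and 0 counts in all 3 A18 libraries. Its level in nts was still low, at 0.375, 1.27 and 0.378 FPKM. Against a floor of 3 counts per library it was at least 10.1-fold higher in nts (edgeR adjusted p = 0.114), and at least 5.68-fold without nts replicate 2, which had most of the counts. Such bounds cover counting error only and hold in the count unit of the table, in which 1 count need not be 1 fragment. Phvul.001G023200, annotated with circadian rhythm, red light, cold and carpel development, had 7.02, 5.64 and 7.15 FPKM in nts and 1.97, 3.88 and 4.42 FPKM in A18 (edgeR log2 change 1.02 ± 0.41, adjusted p = 0.267).

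The 2 genes described as cryptochrome-interacting bHLH, a factor that binds the blue-light receptor cryptochrome and promotes flowering in Arabidopsis, differed in level. Phvul.011G044800 had 91.0, 65.6 and 191 FPKM in nts and 36.3, 91.6 and 56.7 FPKM in A18, and Phvul.009G023500 had 13.0, 10.8 and 20.3 FPKM in nts and 3.97, 20.4 and 7.33 FPKM in A18. In both genes A18 replicate 2 was the highest A18 library and nts replicate 3 the highest nts library, and the genotypes overlapped. The log2 changes were 0.97 ± 0.55 and 0.50 ± 0.66 (edgeR adjusted p = 0.409 and 0.738).

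Phvul.010G120000 (chromosome 10, 40045528 to 40047787) has only the general terms of the family. It had 17.7, 30.3 and 12.5 FPKM in nts, against 5.38, 0.847 and 3.92 FPKM in A18, with no overlap (edgeR log2 change 2.68 ± 0.65, adjusted p = 0.117). It completes the 7 members past the study's thresholds on the higher side.

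The gene described as ABA-inducible bHLH-type factor, Phvul.006G114000 (chromosome 6, 22235511 to 22237358), is annotated with wounding and abscisic acid, the hormone of water stress. It had 15.3, 14.2 and 11.1 FPKM in nts and 6.40, 4.80 and 6.98 FPKM in A18. The replicates of each genotype were close together, and the change of 1.24 on the log2 scale had a standard error of only 0.21 (edgeR adjusted p = 0.0663). The gene was called without nts replicate 3, its nts library nearest to A18, with DESeq2 and with limma-voom with quality weights. Its log2 change ran from 1.04 to 1.35 over the 14 alternatives.

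Phvul.003G285700, annotated with the jasmonate pathway, abscisic acid, flavonoids and defence against insects, had 33.2, 23.9 and 19.3 FPKM in nts and 20.3, 13.6 and 18.7 FPKM in A18. On the FPKM scale nts replicate 3 lay below A18 replicate 1, although the scaled counts did not overlap (edgeR log2 change 0.63 ± 0.24, adjusted p = 0.249). The 16 tested TIFY-domain genes include the JAZ repressors that bind jasmonate-pathway bHLH factors. At an unadjusted edgeR p under 0.05 they had 0 higher and 2 lower (8.39% and 9.58% of all tested genes were). They had 0 called over all genes and a median log2 change of -0.03. Without A18 replicate 2 they had 2 higher and 2 lower and a median of 0.24. In that setting 2908 of all 21585 tested genes were higher and 2372 lower.

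Members higher in nts with few or general terms included Phvul.006G118900 (chromosome 6, 22730422 to 22731048), the most abundant bHLH gene of the data, with 217, 173 and 308 FPKM in nts and 162, 114.3 and 123.3 FPKM in A18. Its nts libraries all stood above its A18 libraries, the nearest being nts replicate 2 and A18 replicate 1 (edgeR log2 change 0.90 ± 0.28, adjusted p = 0.179). Phvul.006G184600, annotated as part of an RNA polymerase II transcription factor complex, had 11.1, 11.3 and 13.7 FPKM in nts and 6.73, 5.67 and 4.97 FPKM in A18 (edgeR log2 change 1.13 ± 0.29, adjusted p = 0.130). Of the 13 members with that annotation 6 were tested, 3 above and 3 below 0.

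**Figure D3:**
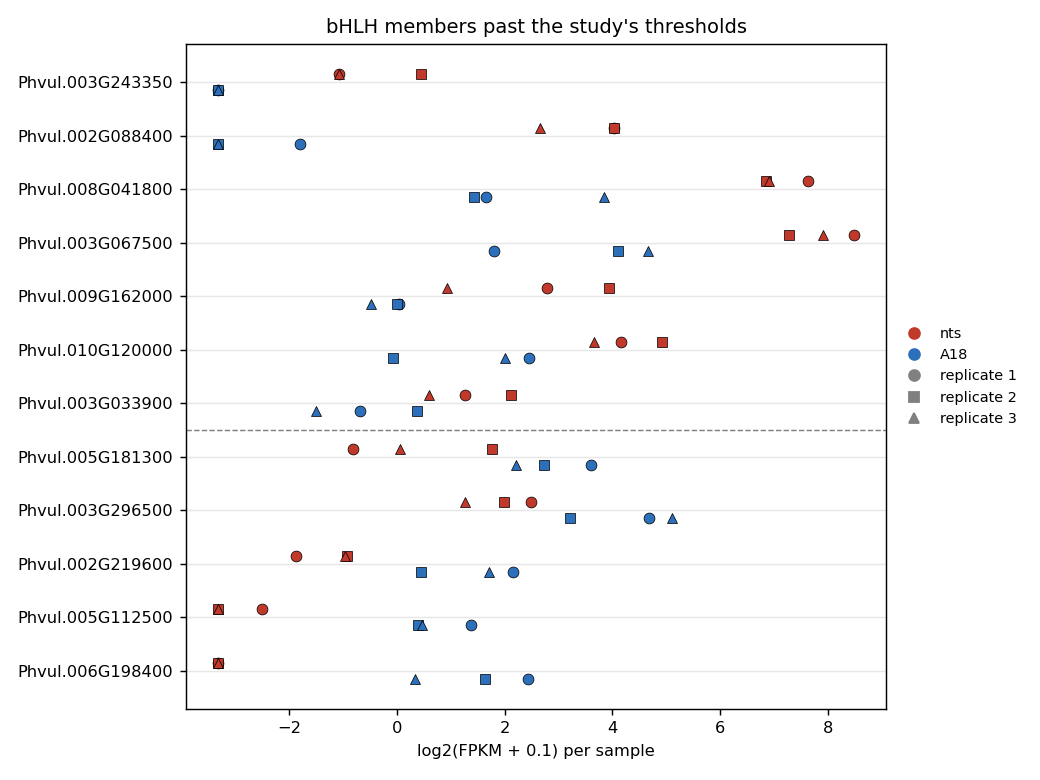
Level per sample, as log2(FPKM + 0.1) on the horizontal axis, of the 12 members past the study's thresholds, ordered by log2 change; nts points (red) lie above A18 points (blue) within each gene's line, and the dashed line divides the 7 higher from the 5 lower genes. For each of the 12 genes the nts and A18 libraries do not overlap, which choosing them by their change in the same libraries favours. Of all tested genes, 11.9% were higher and 12.7% lower without overlap. The nts library nearest to A18 is replicate 3 in Phvul.009G162000, Phvul.003G033900, Phvul.002G088400 and Phvul.010G120000.

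The term for RNA polymerase II transcriptional activators is carried by 27 members, of which 20 were tested. Of these 20, 17 lay below 0, as did 10524 of all 21126 tested genes. At an unadjusted edgeR p under 0.05, 7 were lower and 0 higher (9.58% and 8.39% of all tested genes were). In 7, every nts library lay below every A18 library (12.7% of all tested genes did). The median log2 change of the 20 was -0.63, and their quartiles were -0.94 and -0.25. The 43 tested genes outside the family with the same term had a median of 0.09, with 4 lower and 8 higher. The count of lower activator members at that p was 3 when A18 replicate 1 was left out, 4 without nts replicate 1, 12 without nts replicate 3 and 13 when both nts replicate 3 and A18 replicate 2 were left out. It lay between 5 and 8 without each of the other libraries. Lower genes over all tested genes moved the same way from 2023 with all libraries. They were 1492 without A18 replicate 1 and 1297 without nts replicate 1. They were 3034 of 21653 without nts replicate 3 and 4101 of 21405 without both libraries.

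Phvul.002G219600 (chromosome 2, 38961159 to 38964119) had 0.172, 0.429 and 0.412 FPKM in nts, against 4.37, 1.26 and 3.16 FPKM in A18. Its levels were low in both genotypes, and the lowest A18 library was replicate 2 (edgeR log2 change -2.96 ± 0.61, adjusted p = 0.0900). Phvul.003G296500 (chromosome 3, 53335924 to 53339441) had 5.52, 3.87 and 2.30 FPKM in nts and 25.4, 9.21 and 34.4 FPKM in A18, again with A18 replicate 2 lowest of its genotype (edgeR log2 change -2.44 ± 0.55, adjusted p = 0.103). Both genes were called without A18 replicate 2, the A18 library nearest to nts in each, where 4.38% of all tested genes were called.

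The more abundant activator members differed by less. Phvul.007G187500 had 26.3, 39.1 and 18.5 FPKM in nts and 62.5, 49.7 and 60.4 FPKM in A18 (edgeR log2 change -0.96 ± 0.27, adjusted p = 0.149). Phvul.002G311700, named here after its values were seen, had 42.5, 52.8 and 69.3 FPKM in nts and 127, 78.7 and 98.4 FPKM in A18, and Phvul.010G147600, likewise, had 70.1, 64.5 and 99.4 FPKM in nts and 146, 89.0 and 127 FPKM in A18. In Phvul.010G147600 nts replicate 3 was above A18 replicate 2, so its genotypes overlapped.

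Phvul.005G089000 averaged 3.03 ± 0.94 FPKM in nts and 6.53 ± 2.44 in A18, and Phvul.001G138600 averaged 6.13 ± 2.16 FPKM in nts and 12.1 ± 4.07 in A18 (SD, n = 3 each). The genotypes overlapped in Phvul.001G138600, where nts replicate 3 had 8.09 FPKM and A18 replicate 2 had 7.51. By contrast Phvul.001G156400 and Phvul.011G001800, also activator members and also named after their values were seen, had 53.7 ± 14.4 and 34.6 ± 4.15 FPKM in nts and 60.0 ± 7.25 and 34.96 ± 9.86 in A18.

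**Figure D4:**
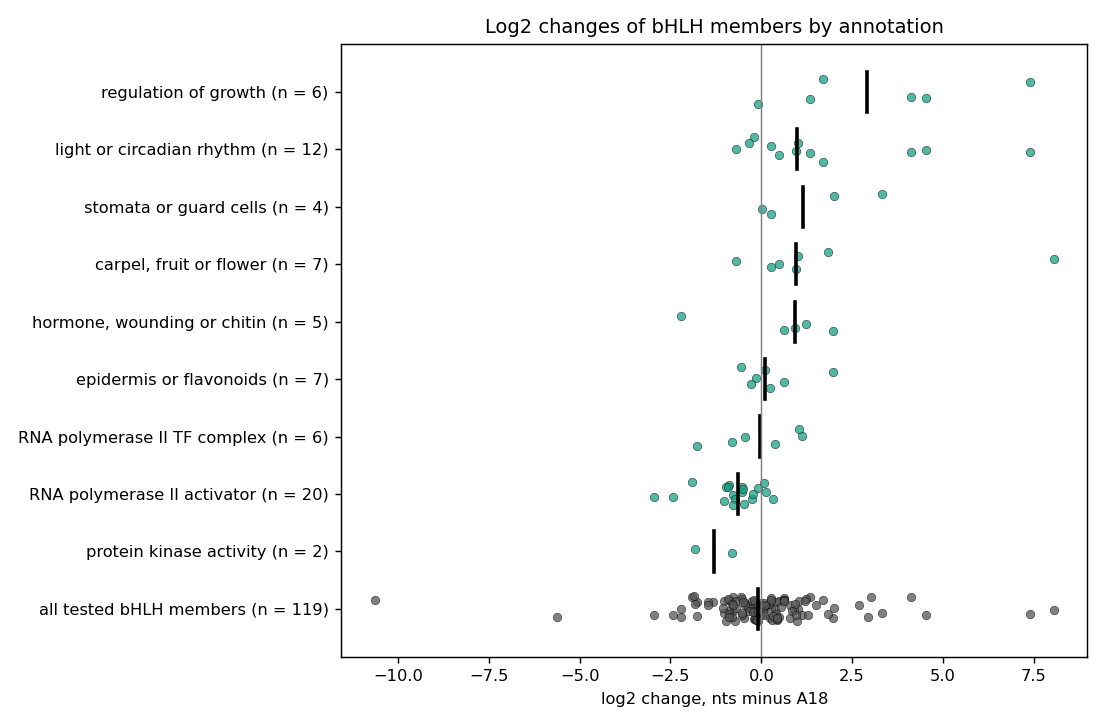
Log2 changes (nts minus A18, horizontal axis) of tested bHLH members by GO annotation, with all 119 tested members on the bottom line; each point is a gene, black bars are medians, and a gene can stand in several groups. The growth line has its median at 2.92 and the activator line at -0.63, while all tested members have theirs at -0.09.

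Phvul.006G198400 (chromosome 6, 29579190 to 29580955), a member with only the general terms, had 0 counts in all 3 nts libraries. In A18 it had 5.27, 3.002 and 1.16 FPKM, from 380, 152 and 74 counts. It was at least 67.7-fold lower in nts against a floor of 3 counts per library, in the count unit of the table (edgeR adjusted p = 0.0663). The bound ran from 46.5-fold to 89.0-fold with 1 library left out, and the gene was called without nts replicate 3 and by DESeq2.

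Phvul.005G112500 (chromosome 5, 34241479 to 34243242) was close to silent in nts in the same way, with 0.0769, 0 and 0 FPKM from 4, 0 and 0 counts, against 2.48, 1.21 and 1.28 FPKM in A18 from 121, 42 and 55 counts. Its fitted log2 change of -5.64 ± 1.34 (edgeR adjusted p = 0.113) rests on those 4 counts. Phvul.005G181300 (chromosome 5, 40607512 to 40609849) had 0.471, 3.32 and 0.943 FPKM in nts and 12.03, 6.57 and 4.52 FPKM in A18, with nts replicate 2 nearest to A18 (edgeR log2 change -2.21 ± 0.77, adjusted p = 0.208).

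Phvul.007G194600 (chromosome 7, 31645452 to 31650865) lay below A18 at a higher level of expression. It had 16.5, 20.3 and 19.9 FPKM in nts, which were close to each other, and 47.8, 51.6 and 112.96 FPKM in A18, where replicate 3 was high (edgeR log2 change -1.82 ± 0.36, adjusted p = 0.0841). Only 2 members carry a protein kinase term beside their bHLH description, and the other one, Phvul.001G159600, had 16.1, 27.9 and 15.3 FPKM in nts against 28.3, 32.1 and 49.2 FPKM in A18. On the FPKM scale its highest nts library was just below its lowest A18 library, and on scaled counts the genotypes overlapped (edgeR log2 change -0.82 ± 0.31, adjusted p = 0.246).

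Phvul.010G158200, for which the table gives no GO term, had 39.1, 36.7 and 36.3 FPKM in nts and 69.1, 113.8 and 59.4 FPKM in A18 (edgeR log2 change -1.06 ± 0.32, adjusted p = 0.167). Here A18 replicate 2 was the highest library, and without it the log2 change was -0.61. Phvul.003G058800 averaged 7.32 ± 0.62 FPKM in nts and 14.5 ± 3.91 in A18, and Phvul.006G093900 averaged 7.49 ± 2.37 FPKM in nts and 14.8 ± 4.25 in A18 (SD, n = 3 each). The genotypes did not overlap in either gene.

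**Figure D5:**
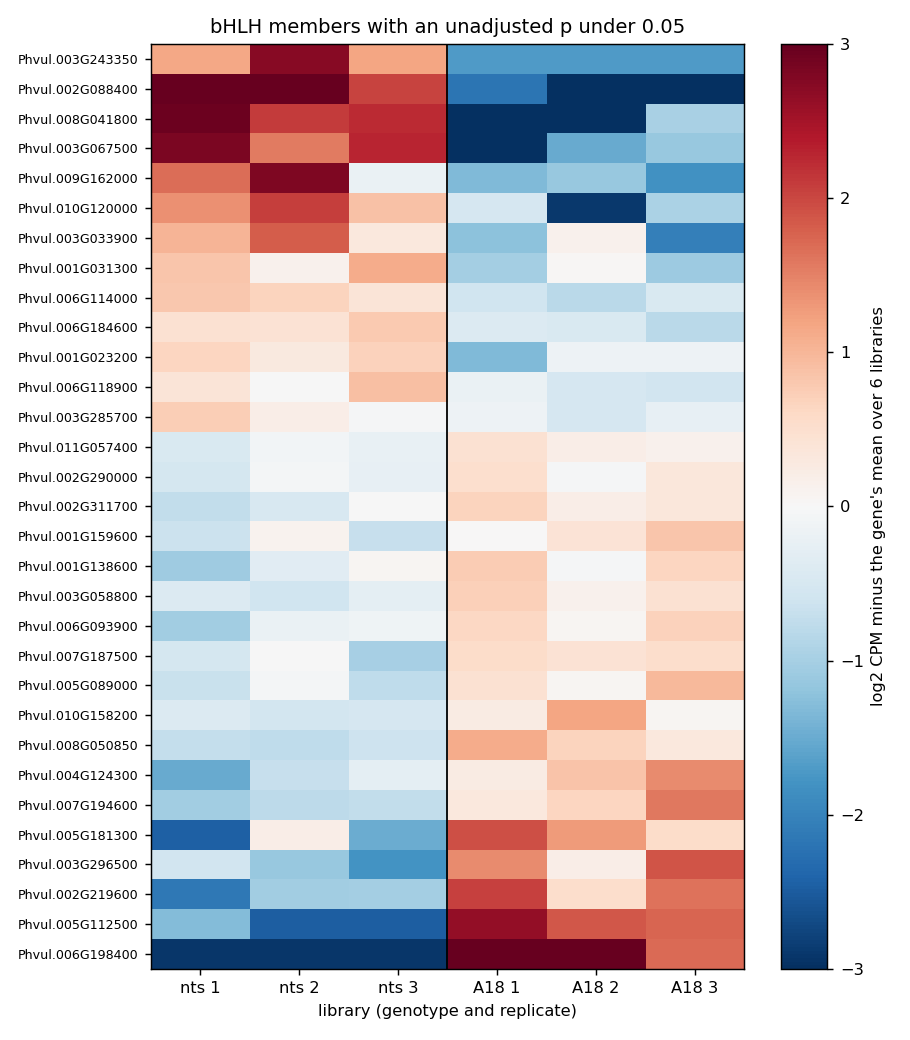
Log2 CPM of each library minus the gene's mean over the 6 libraries (colour scale, drawn from -3 to 3) for the 31 members with an unadjusted p under 0.05, nts libraries left and A18 libraries right, ordered by log2 change. The 13 genes higher in nts are at the top and the 18 lower at the bottom, with nts replicate 3 the palest nts library in Phvul.009G162000 and A18 replicate 2 the palest A18 library in Phvul.002G219600.

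The 5 most abundant members by the mean over all samples were Phvul.006G118900, given above, Phvul.008G222700, Phvul.011G141300, Phvul.007G202200 and Phvul.002G194400, with means of 183, 158, 156, 146 and 142 FPKM. The neighbours in this order do not differ beyond their spread between libraries. Phvul.008G222700 had 72.0, 62.7 and 208 FPKM in nts and 287, 81.8 and 237 FPKM in A18, so nts replicate 3 and A18 replicate 2 each stood with the other genotype (edgeR log2 change -0.69 ± 0.61, adjusted p = 0.603). It was called lower with both of these libraries left out, and Phvul.011G141300 was then called higher. Those calls carry no weight of their own, since the libraries left out were the ones that overlapped. Of all tested genes, 19.9% were called in that setting. Phvul.011G141300 showed the opposite order, with 233, 193 and 101 FPKM in nts and 119, 182.3 and 106 FPKM in A18, and these libraries again stood with the other genotype (edgeR log2 change 0.42 ± 0.40, adjusted p = 0.630).

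Phvul.007G202200 had 155 ± 60.6 FPKM in nts and 136 ± 29.7 in A18, and Phvul.002G194400 had 133 ± 12.2 FPKM in nts and 151 ± 13.7 in A18 (SD, n = 3 each). Their log2 changes were 0.26 ± 0.39 and -0.11 ± 0.20 (edgeR adjusted p = 0.775 and 0.819), and both changed sign when 1 library was left out.

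Terms for light or the circadian clock are carried by 12 members, all tested, of which 5 were higher in nts and 0 lower at an unadjusted edgeR p under 0.05, with a median log2 change of 0.99 (8.39% of all tested genes were higher). There were 8 higher without A18 replicate 2, 3 without A18 replicate 1 or 3, and 4 higher and 2 lower without nts replicate 3. In the fit of all libraries the growth-annotated genes make up 4 of the 5 higher ones, and Phvul.001G023200 is the other. The KEGG circadian pathway lists 22 members, of which 19 were tested, with 6 above and 13 below 0 and a median log2 change of -0.20. Of these, 2 were higher and 3 lower at that p (8.39% and 9.58% of all tested genes were). The lower count ran from 2 without A18 replicate 1 to 9 without nts replicate 3. Terms for carpels, flowers or fruit are carried by 10 members, of which 7 were tested, with 2 higher, Phvul.001G023200 and Phvul.003G243350, and 0 lower at that p. That count was 5 without A18 replicate 2 and 1 without each of the other libraries. The KEGG pathway of plant hormone signal transduction lists 73 members, of which 58 were tested, with 5 higher and 9 lower in nts at an unadjusted edgeR p under 0.05 (8.39% and 9.58% of all tested genes were) and a median log2 change of -0.12. These counts ran from 2 to 8 higher and from 5 to 14 lower with 1 library left out, the highest without A18 replicate 2 and without nts replicate 3. The shares of 8.39% and 9.58% given for these groups hold for the fit of all libraries only. Over all tested genes 2908 were higher without A18 replicate 2, against 1773 with all libraries. Without nts replicate 3, 3034 were lower, against 2023. Terms for trichomes, root hairs, epidermal cells or flavonoids are carried by 8 members, of which 7 were tested, with 1 higher, Phvul.003G285700 given above, and 1 lower, Phvul.002G290000, with means of 13.2 FPKM in nts and 20.5 FPKM in A18. The 3 tested members with pollen, anther or tapetum terms, Phvul.002G187950, Phvul.003G281300 and Phvul.006G195400, averaged 0.301, 0.133 and 0.307 FPKM in nts and 0.334, 0.121 and 0.193 FPKM in A18, and all overlapped.

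Outside the rule, another 24 genes of the family bear names of their own, such as phytochrome interacting factor, BIG PETAL P and beta HLH protein, and 16 of them were tested, with 5 higher and 3 lower in nts at an unadjusted edgeR p under 0.05 (8.39% and 9.58% of all tested genes were) and 0 called over all genes. The higher count ran from 5 to 7 and the lower count from 1 to 4 with 1 library left out. A phytochrome interacting factor 3 gene (Phvul.001G218800), of the light-labile factors that promote elongation in darkness in Arabidopsis, had 89.3, 73.0 and 68.7 FPKM in nts and 27.4, 25.6 and 24.6 FPKM in A18 (edgeR log2 change 1.65, adjusted p = 0.0541). A BIG PETAL P gene (Phvul.003G072000), named for a factor that limits petal size in Arabidopsis, had 70.5, 81.5 and 83.2 FPKM in nts and 23.2, 31.4 and 16.8 FPKM in A18 (edgeR log2 change 1.77, adjusted p = 0.0693). In these genes all nts libraries stood well above the highest A18 library. Phvul.003G286400, a beta HLH protein 93 gene, had the largest change (edgeR log2 change 5.49, adjusted p = 0.117). It had 17.4, 15.95 and 0.418 FPKM in nts and 0.132, 0.338 and 0.269 FPKM in A18, so nts replicate 3 was near A18. The remaining higher genes were Phvul.007G206000 (phytochrome interacting factor 3, log2 change 1.15) and Phvul.002G079400 (BIG PETAL P, log2 change 1.21). The 3 lower genes were all described as phytochrome interacting factor 3-like. Phvul.007G156200 had 35.03, 34.2 and 33.2 FPKM in nts and 84.95, 51.9 and 59.6 FPKM in A18, with no overlap (edgeR log2 change -0.85, adjusted p = 0.112). Phvul.001G168700 averaged 10.9 ± 5.19 FPKM in nts and 27.6 ± 12.02 in A18, and Phvul.008G196800 averaged 6.66 ± 3.59 FPKM in nts and 19.8 ± 9.85 in A18 (SD, n = 3 each), both with overlap. These examples of either direction were chosen after their values were seen.

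Genes of pathways in which bHLH factors act were read against the 8.39% of all tested genes that were higher and the 9.58% that were lower at an unadjusted edgeR p under 0.05. These shares hold for the fit of all libraries, with 1773 genes higher and 2023 lower. Without nts replicate 3 there were 2498 higher and 3034 lower over all genes. Of 25 tested brassinosteroid genes 2 were higher and 3 lower, with a median log2 change of 0.02, and 4 were higher and 7 lower without nts replicate 3. An iron list was matched by the words ferritin, ferric reductase, iron regulated and nicotianamine. Most of its genes are described as ferritins or as cytochrome b561/ferric reductase family proteins, so it is not a list of iron uptake alone. Of its 22 tested genes 1 was higher and 4 lower, with a median of -0.13. The lower count ran from 2 without A18 replicate 3 to 7 without nts replicate 3. Of 5 tested MYB genes of the kinds that pair with bHLH factors, 0 passed that p in either direction. None of these lists had a gene called over all genes. The largest difference among the iron genes was in Phvul.010G062200, described as iron regulated 2, with 0.465 ± 0.309 FPKM in nts and 5.21 ± 2.42 in A18 (SD, n = 3 each). The bHLH members annotated with iron themselves, of which 2 were tested, overlapped between the genotypes.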

How the data were processed

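One deposited table was used. Per the file headers it holds the authors' raw counts per gene and the authors' FPKM values, in which genes with 0 counts stand at 0.0001 (set to 0 here). Per the submitters' processing notes, the tools on the reads included FastQC and cutadapt 1.9. No aligner, counter, strand setting, genome build or annotation is given in the sources used here, so coordinates are those of the table, and reads of near-identical, overlapping or antisense genes may be split or shared. Among counts from 1 to 39, 29.8% to 33.0% per library were multiples of 4, where 23.1% of those whole numbers are, so a count need not equal 1 fragment.

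Counts were tested with edgeR 4.0.16 in R 4.3.3 (quasi-likelihood fit, robust; TMM scaling; filterByExpr; genotype as the only term, Benjamini-Hochberg adjustment over 21126 genes). Members removed by the filter (43 of 162) are described by level only. Overlap between genotypes was judged on scaled CPM. Alternatives used DESeq2 1.42.0, limma 3.58.1, other scalings, no filter, a replicate block and left-out libraries. The common biological coefficient of variation was 0.487. No pair of replicates looked like 1 library deposited again (chi-square of 132 to 435 per gene). The test was tried on simulated counts for nts and A18 over 21126 genes. It found 0 of 50 genes with a 2-fold change, 23 of 50 at 4-fold, 33 of 50 at 8-fold and 45 of 50 at 16-fold, and made 7 calls among 20591 genes simulated without a change.

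Members and lists were chosen with earlier results of these data known. Named were members past the study's thresholds, up to 8 per direction with an unadjusted p under 0.05 and a mean of at least 5 FPKM in the higher genotype, the 5 most abundant, and those with a specific description; others are said to be chosen after their values were seen. From the list of other bHLH genes 42 genes matched by word were left out as no bHLH factor by name (conserved upstream reading frames, root hair specific and root hair GTP-binding genes), and 5 potassium channels from the TIFY list.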

Additional observations from a re-analysis of the deposited data

How the results depend on the processing

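The count of genes called over all genes, 20 at the settings used, was 2380 with DESeq2, 5087 with limma-voom and quality weights, 437 with limma on log2(FPKM + 1), 37 without the filter and 4267 without both A18 replicate 2 and nts replicate 3, and ran from 0 to 964 when 1 library was left out. The count of bHLH members called, 0 at the settings used, was 22, 44, 3, 0 and 27 in the same order and ran from 0 to 6. Members past the study's thresholds on the higher side (7) were 11 with limma-voom, 4 with limma on FPKM and 11 without both libraries, and 6 to 12 with 1 library left out. On the lower side (5) they were 12, 1 and 10, and 4 to 8. The share of all genes past these thresholds was not taken in these settings. The log2 scale with a pseudocount of 1 understates changes of low genes, and the other causes were not tested. The median log2 change of tested members ran from -0.11 to 0.03 with 1 library left out.

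The labels do not say whether replicate numbers pair the samples. Same-numbered samples deviated with correlations of -0.016, -0.13 and 0.039, and differently numbered ones with -0.148 to 0.111. With 3 samples per genotype, these values cannot decide whether the numbers pair samples. With the replicate number as a block, 0 genes were called over all genes, 0 members were called, and the study's limits held 7 higher and 5 lower members. Of 447 values of 32 named members under 14 alternatives, 376 kept their direction and their side of the threshold, 69 passed the threshold and 2 changed sign, Phvul.002G194400 (-0.2206 to 0.034 with 1 library left out, the highest without A18 replicate 2) and Phvul.007G202200 (-0.0028 to 0.5701, the lowest without nts replicate 3). The growth median stayed between 2.59 and 3.86 and the activator median between -0.87 and -0.49 over all 14.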

Other observations

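Members lie on all 11 chromosomes, from 4 of 1829 genes on chromosome 4 (0.219%) to 18 of 1672 on chromosome 10 (1.08%). Of the 162, 32 stand directly beside another member in the order of the table, in 13 runs, 9 of them of 2 genes, and 10 of these 32 had 0 counts in all 6 libraries. The longest run, 5 genes on chromosome 10 from Phvul.010G158200 to Phvul.010G158600, held levels far apart. Phvul.010G158200 averaged 37.4 ± 1.47 FPKM in nts and 80.8 ± 29.0 in A18, Phvul.010G158400 averaged 2.63 ± 1.18 FPKM in nts and 5.31 ± 3.50 in A18, and Phvul.010G158300 had 0 counts throughout. Such neighbours may be near-identical copies, so the split of reads among them is uncertain.

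The neighbouring members Phvul.008G050850 and Phvul.008G050901 on chromosome 8 both had every nts library below every A18 library, as did 12.7% of all tested genes. Phvul.008G050850, annotated with endoplasmic reticulum organization, had 1.33, 1.35 and 1.39 FPKM in nts and 5.49, 3.42 and 3.08 FPKM in A18 (edgeR log2 change -1.47, adjusted p = 0.129). Phvul.008G050901 had 0.171, 0.282 and 0.299 FPKM in nts and 1.24, 0.868 and 0.797 FPKM in A18 (edgeR log2 change -1.78, adjusted p = 0.288). Both were named after their values were seen.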
